A study of Mus musculus with 14 samples.

Results

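Freshly isolated neural stem cells of adult mice with and without Aplp1 were compared here within 3 stages of the lineage that leads from quiescent stem cells to new neurons. Cells were chosen by their measured marker counts: each was placed by the highest of 3 summed marker groups, with a sum of 2 or more required. The groups were Slc1a3, Slc1a2, Aldoc, Clu and Gja1 for quiescent cells, Top2a, Rrm2, Pcna and Mcm6 for cycling cells, and Dcx, Sp8, Sp9 and Stmn2 for neuroblasts. Of 4088 fresh cells, 3286 were placed, out of 6385 single cells in the whole series of 14 samples. The wildtype library held 1542 quiescent, 104 cycling and 193 neuroblast cells, and the Aplp1 knockout library held 1081, 155 and 211. Another 31 cells were tied between stages and 771 had no marker group with 2 counts.

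Both groups are untreated, freshly isolated cells of the subventricular zone of adult mice. One group is labelled wildtype and the other APLP1-/-, and each is a single 10x Genomics library made by oligo(dT) capture. Genotype and library therefore cannot be told apart, and all intervals below cover counting error only. Antibodies to MHC class I and CD45, carrying 3 hash tag oligonucleotides, mark up to 3 mice within each library. The labels give no exact age, sex, strain or allele, nor whether the counted 3′ sequence lies in the deleted part of Aplp1. The mice of a genotype share 1 library, so tests over mice do not remove the library either.

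Aplp1 encodes amyloid precursor-like protein 1, a membrane protein of the APP family, whose other members are App and Aplp2. These proteins act in cell adhesion and are cut by secretases, the enzymes that also cut Notch. In the subventricular zone, astrocyte-like stem cells rest in quiescence, enter the cell cycle as progenitors and give rise to neuroblasts that migrate to the olfactory bulb.

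The tables are shallow. The wildtype library held 1133263 counts with a median of 364 per cell, and the knockout-labelled library held 1227695 with a median of 424. Comparisons used the 12470 genes present in both tables, which hold 99.9% of the counts of each. Median counts per cell were 335.5 and 392 in quiescent cells, 1048 and 1192 in cycling cells, and 488 and 539 in neuroblasts, wildtype first. The libraries share 13 cell barcodes. Mitochondrially encoded genes are absent from both tables.

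The stage labels were checked against genes that did not place the cells. A list of 28 quiescence and astrocyte genes reached 39493 CPM (a share of all counts of the stage, scaled alike in both libraries) in wildtype quiescent cells, against 2669 in cycling cells and 2347 in neuroblasts. The corresponding values in the knockout-labelled library were 37306, 2623 and 1269 CPM. These genes also mark mature astrocytes, so quiescent stem cells and astrocytes are not separated by this rule. G2/M genes, which are active around mitosis, were highest in cycling cells of both libraries, at 5825 and 7675 CPM. A list of 21 neuronal genes stood at 34011 and 37676 CPM in neuroblasts and at 29198 and 29045 CPM in cycling cells, since Tubb5, a tubulin of both, dominates its sum.

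The libraries differed in stage makeup. Quiescent cells made up 69.8% of the wildtype library (exact Clopper-Pearson 95% interval 67.8 to 71.7) and 57.5% of the knockout-labelled library (55.3 to 59.8), 12.3 percentage points fewer. Cycling cells made up 4.71% (3.86 to 5.68) and 8.25% (7.04 to 9.59). Neuroblasts made up 8.74% (7.59 to 9.99) and 11.2% (9.84 to 12.7). The share of cells without a stage was also larger in the knockout-labelled library, at 22.2% against 16.0%. Among placed cells alone, the quiescent share was 83.8% in the wildtype and 74.7% in the knockout-labelled library.

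Depth bears on the smaller stages. Thinning to 200 counts left out cells with fewer counts, so 1904 of 2209 wildtype and 1690 of 1879 knockout-labelled cells were placed again. Their quiescent shares were 61.8% and 49.4%, a difference of the same size. Both cycling shares then fell, to 1.37% and 2.19%, and their difference fell from 3.54 to 0.824 percentage points. The neuroblast shares became 7.35% and 7.22%. Among cells with 300 or more counts, cycling shares were 7.18% and 11.4%, and neuroblast shares were 10.7% and 13.1%. Cells at the marker minimum of exactly 2 counts numbered 21 of 104 and 33 of 155 in the cycling stage, 27 of 193 and 33 of 211 among neuroblasts, and 66 of 1542 and 70 of 1081 among quiescent cells. Just outside it, 186 wildtype and 227 knockout-labelled cells had a highest marker sum of 1.

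Across mice the difference in makeup was not larger than the spread. A mouse was called for 463 wildtype and 406 knockout-labelled cells. The quiescent share of tagged cells was 74.4%, 81.0% and 87.0% in wildtype mice and 83.6%, 80.3% and 66.2% in knockout-labelled mice. The means were 80.8% ± 6.32 and 76.7% ± 9.26 (SD, n = 3 mice each; exact two-sided permutation p = 0.6, adjusted p = 0.7 over 3 stages). With 3 mice against 3 this test cannot go below 0.1. The lowest share belonged to the knockout-labelled mouse with tag 3, and without it the mean of the knockout-labelled mice was 1.14 percentage points above that of the wildtype mice.

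Cycling and neuroblast cells were rare among tagged cells. Cycling shares were 0%, 1.41% and 1.26% in wildtype mice and 0%, 2.55% and 3.76% in knockout-labelled mice (exact permutation p = 0.5, n = 3 mice each, adjusted p = 0.7). Neuroblast shares were 1.22%, 2.11% and 1.26% against 0.862%, 1.91% and 3.76% (exact permutation p = 0.7, n = 3 mice each, adjusted p = 0.7). Both sets of shares overlap between genotypes. Tags were called on 24.9% and 28.8% of quiescent cells, but on only 4.81% and 5.81% of cycling cells and 3.63% and 4.27% of neuroblasts, so tagged cells do not have the makeup of their libraries. Whether the stages differ in how much antibody they bind was not tested.

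**Figure D1:**
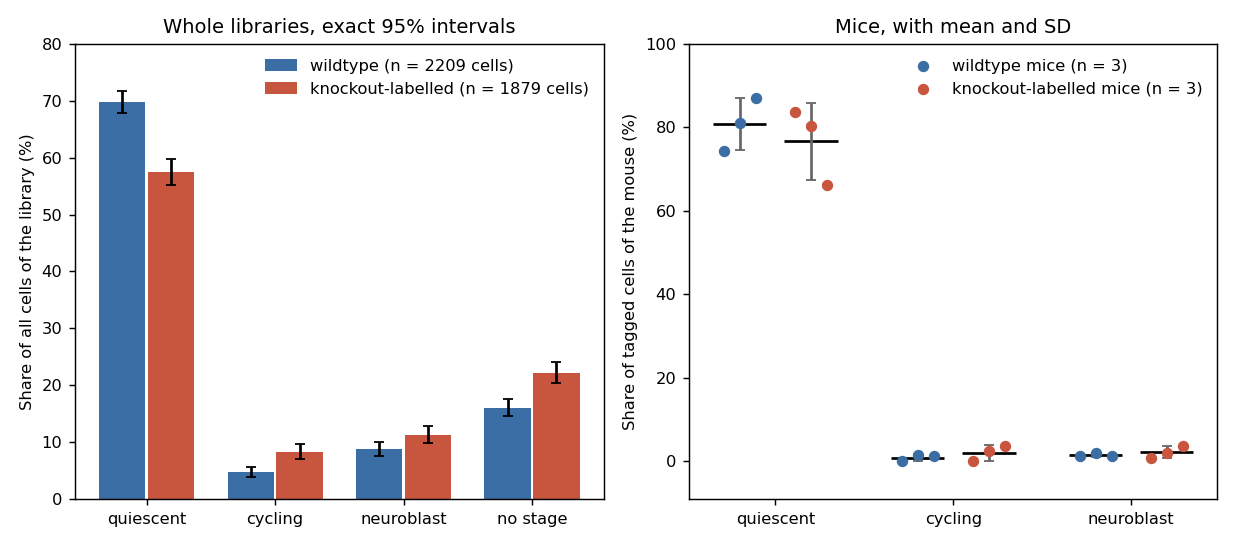
Share of cells in each stage. The left panel gives the percent of all cells of each library with exact 95% intervals, and the right panel gives the percent of tagged cells of each mouse with the mean and SD. Quiescent cells are 69.8% of the wildtype and 57.5% of the knockout-labelled library, while the mice of both genotypes overlap in every stage.

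Aplp1 itself, on chromosome 7 from 30434980 to 30445582 (mm10), was lower in the knockout-labelled library at every stage, but was not absent. Quiescent cells held 197 wildtype counts (283 CPM, 95% Poisson interval 244.5 to 325) and 44 knockout-labelled counts (75.7 CPM, 55.0 to 102), a ratio of 0.268 (0.189 to 0.373). The counts came from 148 and 35 cells. Neuroblasts held 25 and 7 counts, at 207 and 41.3 CPM, a ratio of 0.199 (0.0728 to 0.474), which became 0.339 (0.119 to 0.860) when each gene was counted at most once per cell and 0.301 (0.0947 to 0.833) with a marker sum of 3 or more. Cycling cells held 5 counts (35.9 CPM) and 1 count (4.06 CPM), with a ratio of 0.113 (0.00239 to 1.01). Quiescent cells and neuroblasts of the wildtype library thus held Aplp1 at 283 and 207 CPM with overlapping intervals, and cycling cells held it at a level below both.

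The Aplp1 counts of the knockout-labelled library were unequal among its mice. In quiescent cells with a tag, the 3 wildtype mice held 4, 15 and 20 Aplp1 counts, at 137, 313 and 235 CPM. The knockout-labelled mice held 0, 7 and 0, with the 7 counts of tag 2 at 122 CPM (48.9 to 251). A count of 0 allows up to 58.2 CPM for tag 1 and 74.3 CPM for tag 3. Every knockout-labelled mouse was below every wildtype mouse, and tag 2 lay close to the lowest of them. Without tag 2, the tagged quiescent cells held 0 knockout-labelled against 39 wildtype counts. These values are for cells with 10 or more tag counts. With 3 or more, knockout-labelled tags 1, 2 and 3 held 1, 20 and 0 Aplp1 counts in quiescent cells, at 13.9, 163 and 0 CPM, and tag 1 held another count in a cycling cell. Results over all 3 knockout-labelled mice below include tag 2, although it held Aplp1 counts. Why this mouse held them was not tested. In edgeR's quasi-likelihood fit without a filter on low counts, Aplp1 had a log2 fold change of -2.35 (SE 0.87) with an adjusted p of 0.809.

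App, the founding member of the family, had few counts. It held 33 and 38 counts in quiescent cells, at 47.3 and 65.4 CPM, a ratio of 1.38 (0.843 to 2.27). In cycling cells it held 8 and 2, and in neuroblasts 19 and 12, a ratio of 0.450 (0.199 to 0.975) that became 0.823 (0.324 to 2.09), reaching 1, when counted once per cell. Aplp2 held 196 and 132 counts in quiescent cells, 281 and 227 CPM, a ratio of 0.808 (0.643 to 1.01), and its interval reached 1. Equal counts of 16 and 16 in cycling cells and 13 and 13 in neuroblasts gave ratios of 0.566 (0.265 to 1.21) and 0.712 (0.304 to 1.67), since the knockout-labelled stages were deeper. By mouse, Aplp2 in quiescent cells was 412, 188 and 341 CPM in wildtype and 175, 243 and 297 CPM in knockout-labelled mice, which overlap. App overlapped likewise, at 103, 104 and 23.5 against 19.4, 156 and 99.1 CPM.

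Of the genes that process APP family proteins or bind their tails, 11 had 50 or more counts in quiescent cells, and 1 of them was 2-fold or more higher while none was that much lower. Over all 3630 such genes, 3.8% were 2-fold higher and 3.17% were 2-fold lower, so the list stands near the background. The summed list was level in quiescent cells, at 3260 and 3268 CPM. Its most abundant members were Itm2b, a regulator of APP processing, with a ratio of 0.968, and Adam10, an alpha-secretase, with 1.07. The member past 2-fold was Adam17, another alpha-secretase, with 13 and 39 counts. Adam17 stood at 0, 0 and 23.5 CPM in wildtype mice and 194, 69.5 and 49.5 CPM in knockout-labelled mice, with no overlap, on 0, 0 and 2 counts against 10, 4 and 2. Rtn3, a reticulon that binds the beta-secretase, did not overlap either, at 240.3, 292 and 259 against 310.5, 382 and 495 CPM. These were 2 of 11 members higher in every knockout-labelled mouse and none lower, where 5.87% of all 3630 genes were higher and 4.13% were lower. Adam17 and the other list members beyond the 2 of highest count were named after their values were seen. In cycling cells the summed list was 2167 and 1763 CPM, and Bace1, the beta-secretase, had 46 and 34 counts, a ratio of 0.418 (0.260 to 0.666), 1 of 2 members of 4 that were 2-fold or more lower, where 3.67% of the 1063 genes with 50 or more counts in cycling cells were.

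Immediate early genes, which encode short-lived transcription factors and regulators induced within minutes by stimulation or by tissue dissociation, were higher in knockout-labelled quiescent cells. The 24 genes summed to 3807 CPM in the wildtype and 7032 CPM in the knockout-labelled library, a ratio of 1.85 (1.76 to 1.94). Of the 16 members with 50 or more counts, 15 had a ratio above 1 and 7 of these were 2-fold or more higher, where 3.8% of all genes were. Their median log2 ratio was 0.97, beside 0.02 over all 3630 genes. Fos, a subunit of the AP-1 transcription factor, held 694 and 1210 counts (996 and 2081 CPM), a ratio of 2.09 (1.90 to 2.30). Btg2, an antiproliferative gene, held 567 and 788 counts, a ratio of 1.67 (1.49 to 1.86). Klf4, Nr4a1 and Ier2 had the largest ratios, at 2.89, 3.04 and 4.80, on 70 and 169, 26 and 66, and 11 and 44 counts.

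The difference was also seen between mice. The list summed to 5011, 4191 and 4644 CPM in the quiescent cells of wildtype mice and to 7820, 7526 and 6688 CPM in those of knockout-labelled mice. The means were 4615 ± 411 and 7344 ± 587 CPM (SD, n = 3 mice each), and the groups do not overlap. With a tag minimum of 3 counts, which keeps more cells, the values were 3890, 3622 and 4522 against 9079, 5603 and 8131 CPM, again without overlap. In cells with no mouse call the ratio was 1.93. Without the mouse of tag 2, which retains Aplp1 counts, the other two knockout-labelled mice still lay above every wildtype mouse under both tag minimums.

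Single immediate early genes gave the same picture for some members and not for others. Fos was 1133, 876 and 1434 CPM in wildtype mice and 1921, 2624 and 1833 CPM in knockout-labelled mice. Jun was 446, 459 and 494 against 757, 730.0 and 669 CPM. Junb, Nr4a1, Klf4 and Dusp1 did not overlap either, Dusp1 by the narrowest margin with 208.5 CPM in the highest wildtype and 208.6 CPM in the lowest knockout-labelled mouse, so 6 of 16 members were higher in every knockout-labelled mouse, against the same 5.87% of all genes. Egr1 overlapped, at 995, 521 and 576 against 543, 643 and 669 CPM, and Jund overlapped as well. Btg2 overlapped only through wildtype tag 1, with 1270, 584 and 494 against 1630, 1582 and 1189 CPM.

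More quiescent cells carried an immediate early count. Before thinning, 32.6% of wildtype and 49.7% of knockout-labelled quiescent cells had at least 1 count of the list. After thinning to 200 counts, which left out 226 and 101 quiescent cells, the shares were 24.5% (22.2 to 27.0) and 38.8% (35.7 to 41.9). Neuroblasts at the same depth stood at 19.7% and 19.6%. Dissociation itself induces these genes, each library was prepared once, and an effect of handling cannot be told apart from genotype here.

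**Figure D2:**
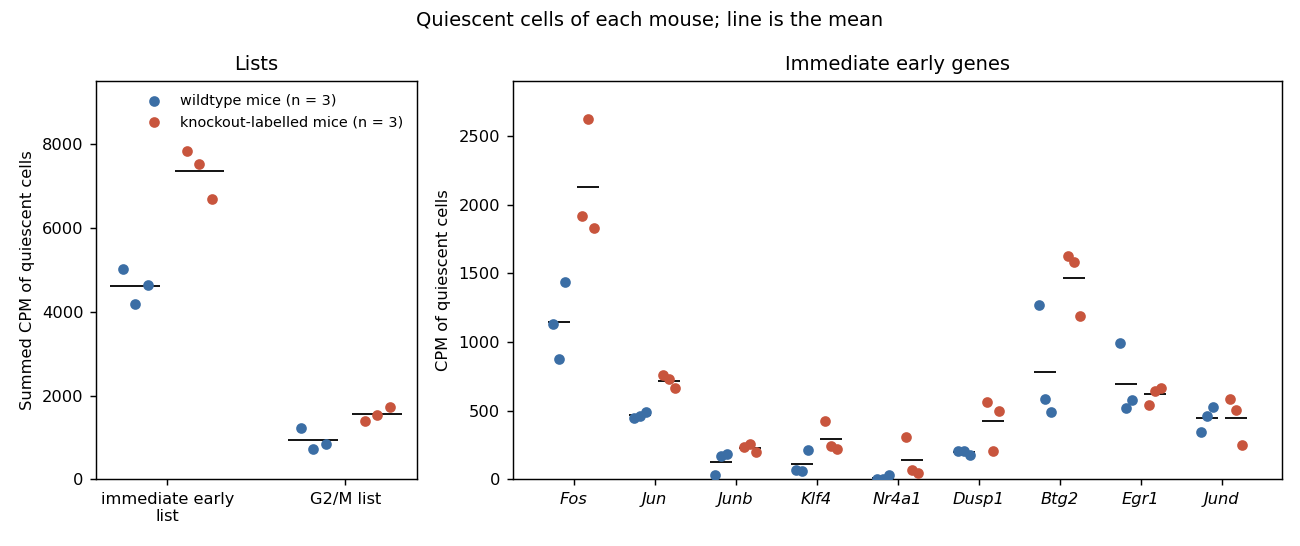
Quiescent cells of each mouse, as summed CPM of the immediate early and G2/M lists on the left and CPM of 9 immediate early genes on the right. Points are mice and lines are means of 3. The list values of knockout-labelled mice, from 6688 to 7820 CPM, lie above those of wildtype mice, from 4191 to 5011 CPM, while Egr1, Jund and Btg2 overlap.

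In cycling cells the same list had the opposite direction. It summed to 3960 CPM in the wildtype and 2412 CPM in the knockout-labelled library, a ratio of 0.609 (0.542 to 0.685). Of 6 members with 50 or more counts, 5 had a ratio below 1 and 2 were 2-fold or more lower, against 3.67% of all genes. Egr1, a zinc finger immediate early factor, held 164 and 182 counts, with a ratio of 0.628, and Btg2 held 112 and 75, with a ratio of 0.379 (0.279 to 0.512). Fos held 88 and 87 counts, a ratio of 0.560. The shares of cycling cells with a list count at 200 counts were level, at 38.6% and 40.4%, so the lower sum was not matched by fewer positive cells. Counted once per cell and gene, the list ratio was 0.814.

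No mouse test was possible in cycling cells, where no mouse had 10 called cells. With a tag minimum of 3, wildtype tag 1 stood at 2010 CPM on 12 cells, below knockout-labelled tag 2 at 6028 CPM on 15 cells and level with tag 3 at 2145 CPM on 21 cells. These 3 mice do not show the direction of the libraries. In neuroblasts the list was 1186 and 1316 CPM, a ratio of 1.11 (0.896 to 1.38).

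G2/M genes were higher in the knockout-labelled library at all stages. In quiescent cells the 30 genes summed to 1413 and 2150 CPM, a ratio of 1.52 (1.40 to 1.66). All 13 members with 50 or more counts had a ratio above 1, the lowest being Nusap1 at 1.003, and 5 were 2-fold or more higher, where 3.8% of all 3630 genes were. H2afz and Hmgb2, chromatin proteins and the most abundant of the 13, had ratios of 1.17 and 1.35. Cenpf, a kinetochore protein, held 15 and 38 counts, and Ccnb2, a mitotic cyclin, held 11 and 41. The list summed to 1236, 730 and 846 CPM in wildtype mice and to 1397, 1529 and 1734 CPM in knockout-labelled mice, which do not overlap. Cenpf was the 1 member of 13 without overlap, 7.69%, near the 5.87% of all genes that were higher in every knockout-labelled mouse.

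Some of the quiescent cells also carried markers of the cycling stage. A count of Top2a, Rrm2, Pcna or Mcm6 was present in 5.58% of wildtype (4.48 to 6.84) and 10.2% of knockout-labelled quiescent cells (8.44 to 12.1), without thinning. Top2a, the topoisomerase of dividing cells, was 47.3 and 119 CPM, although as a marker it helped to place the cells. Among quiescent cells with no marker of another stage, the G2/M ratio was 1.43 (1.25 to 1.64) and the immediate early ratio was 2.02 (1.91 to 2.14). S phase genes stood at 766 and 808 CPM in quiescent cells, a ratio of 1.06 (0.930 to 1.20), 3 of 6 members above 1 and none past 2-fold.

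Cycling cells held the G2/M list at 5825 and 7675 CPM, a ratio of 1.32 (1.21 to 1.43), with 11 of 15 members above 1 and 4 of them 2-fold or more higher, against 6.02% of all 1063 genes. Smc4, a condensin subunit, had a ratio of 1.13 and H2afz one of 1.16. The 4 members past 2-fold were Cenpf at 4.40, Ckap2l at 2.75, Tpx2 at 2.73 and Ube2c at 2.59, which act at the spindle, at the kinetochore or in cyclin destruction. Ccna2, the cyclin of S and G2 phase, ran the other way with 56 and 58 counts, a ratio of 0.586. S phase genes were 2654 and 2429 CPM. In neuroblasts the G2/M list was 3707 and 5206 CPM, a ratio of 1.40 (1.25 to 1.58). With a tag minimum of 3, wildtype tag 1 held the list at 6202 CPM in cycling cells. Knockout-labelled tag 2 was below it at 4713 CPM and tag 3 above it at 7534 CPM. The neuroblasts of these mice stood at 3663, 2272 and 7053 CPM in the same order. Tag 2 thus ran against the direction of the libraries in both stages.

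Among cells with no marker of another stage, the G2/M ratio was 0.829 (0.677 to 1.02) in cycling cells and 0.907 (0.740 to 1.11) in neuroblasts. This limit left out 78 of 104 wildtype and 116 of 155 knockout-labelled cycling cells, so few remained. It left out 77 of 193 and 87 of 211 neuroblasts, including every neuroblast with a cycling marker. A G2/M difference carried by dividing cells would be removed there by the limit itself. These ratios therefore cannot show which cells the differences rest on. A cycling marker was present in 27.0% of knockout-labelled and 16.1% of wildtype neuroblasts, and Top2a held 96 and 16 counts there. A neuroblast marker was present in 26.5% of knockout-labelled and 17.3% of wildtype cycling cells. Doublets were not removed, and their part in these cells was not tested.

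The quiescence and astrocyte list, the identity genes of the stage, was 0.945 of the wildtype level in quiescent cells (0.928 to 0.962), with 17 of 28 members below 1 and none past 2-fold. Its 2 most abundant members were level: Cst3, a secreted protease inhibitor, had a ratio of 1.03 and Apoe, the lipid carrier, of 1.01. Aqp4, the astrocyte water channel, had the lowest ratio, 0.601 on 323 and 162 counts, but its values by mouse overlapped at 309, 563 and 329 against 699, 191 and 99.1 CPM. Plpp3, a lipid phosphatase, had a ratio of 0.758 and did not overlap between mice, at 3981, 4149 and 4056 against 3764, 3667 and 3121 CPM. Cpe, a prohormone-processing carboxypeptidase, ran the other way without overlap, at 1270, 1689 and 2104 against 2173, 2555 and 2105 CPM, as did Mfge8, a secreted bridging protein of phagocytosis, at 206, 605 and 576 against 718, 626 and 619 CPM. So 2 of 28 members were higher and 1 was lower in every knockout-labelled mouse, beside 5.87% and 4.13% of all genes. After thinning to 200 counts the list ratio was 1.05, so the small whole-library difference changed direction. In neuroblasts the list was 2347 and 1269 CPM, a ratio of 0.541 (0.451 to 0.648), with 1 member, Cst3, above 50 counts.

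The markers that placed the quiescent cells are described only. Gja1, which encodes the gap junction protein connexin 43, held 9554 and 5718 counts, a ratio of 0.718, and Clu, a secreted chaperone, one of 0.789. The glutamate transporters Slc1a3 and Slc1a2 had ratios of 0.887 and 0.988, and Aldoc, a glycolytic aldolase, 0.917. By mouse, Gja1 was 10915, 13927 and 14083 CPM in wildtype and 13408, 10289 and 8893 CPM in knockout-labelled mice, which overlap.

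Activated progenitor genes were 1.17-fold higher in knockout-labelled quiescent cells (1.13 to 1.21), with 10 of 13 members above 1. Of the 13, 1 was past 2-fold, Ccnd1, where 3.8% of all 3630 genes were 2-fold or more higher. By mouse the list overlapped, at 7379, 7276 and 6089 CPM in wildtype and 6093, 7265 and 8026 CPM in knockout-labelled mice. Nfib and Cdk6, the most abundant, had ratios of 0.920 and 1.31. Nfib was lower in every knockout-labelled mouse, at 2986, 3419 and 2669 against 2115, 2190 and 2576 CPM. Of 13 members, 1 was lower and 1 was higher in every such mouse, beside 4.13% and 5.87% of all genes. Ccnd1, a D cyclin, held 32 and 64 counts and overlapped between mice. In cycling cells the list was level at 0.967 (0.926 to 1.01), and turned to 1.06 (1.02 to 1.11) with TMM scaling. In neuroblasts it was 0.899 (0.861 to 0.939), with its 2 most abundant members Nfib at 0.858 and Sox4 at 0.745, while Cdk6, at 81 and 263 counts, and Dlx5, at 13 and 46, were 2-fold or more higher, where 4.76% of the 778 genes with 50 or more counts were.

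Notch pathway genes, which hold stem cells in quiescence, were close to level as a sum. In quiescent cells Notch2 made up 66.9% of the counts of the list. Of 6 members tested there, 3 had intervals above 1 and 2 below 1. The summed ratio of the list was 1.07 in quiescent cells (1.03 to 1.11), 0.867 in cycling cells (0.779 to 0.965) and 0.963 in neuroblasts (0.753 to 1.24). No tested member passed 2-fold at any stage. Notch2, a receptor, had a ratio of 0.922 in quiescent cells and 0.696 in cycling cells, and Jag1, a ligand, had 1.68 and 0.797. Hes5, a target gene of Notch signalling, had 1.66 in quiescent and 1.36 in cycling cells. By mouse, Hes5 in quiescent cells was 343, 188 and 294 CPM against 272, 852 and 372 CPM, and Jag1 was 1167, 751 and 1023 against 660, 921 and 1412 CPM, so both overlapped.

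Neuroblast and neuronal genes were 1.27-fold higher in quiescent cells (1.22 to 1.32), a sum that Tubb5 dominated with 2872 and 3422 counts and a ratio of 1.43. By mouse the list overlapped, from 4754 to 11773 CPM in wildtype and from 5840 to 8620 CPM in knockout-labelled mice. In neuroblasts the list ratio was 1.11 (1.07 to 1.15), with 9 of 19 members above 1. Tubb5, a tubulin, had 1.32 and Map1b, a microtubule-associated protein of growing axons, had 0.682. Gad2, a GABA-synthesising enzyme, was the 1 member of 19 past 2-fold, at 33 and 121 counts. Of all 778 genes, 4.76% were 2-fold or more higher in neuroblasts. Counted once per cell and gene, the neuroblast ratio of the list was 0.904, so its direction is not fixed.

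Among the housekeeping lists, cytosolic ribosomal protein genes had a ratio of 1.35 in quiescent cells (1.24 to 1.47), 1.09 in cycling cells and 0.933 in neuroblasts. Of 8 members in quiescent cells 7 were above 1, led in counts by Rpl8 at 1.40 and Rpl4 at 1.92, while Rplp1 was the 1 below, at 0.275 on 61 and 14 counts. By mouse the quiescent sums overlapped, at 1888, 1376 and 1046 CPM in wildtype and 1358, 2920 and 2378 CPM in knockout-labelled mice. Ribosomal protein genes have many near-identical copies, so their counts are uncertain. Sterol synthesis genes were 0.891 in quiescent and 0.830 in cycling cells. Oxidative phosphorylation genes were level at 1.01, 1.00 and 0.924 in the 3 stages. Genes of CPEB proteins and the poly(A) tail had ratios of 1.10, 1.10 and 0.972, and genes of RNA cleavage and polyadenylation 1.03, 1.19 and 0.915. Glycolysis genes had 0.880, 0.566 and 0.877, the lowest on 73 and 73 counts, and BMP and TGF beta response genes 1.03, 1.37 and 0.891.

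**Figure D3:**
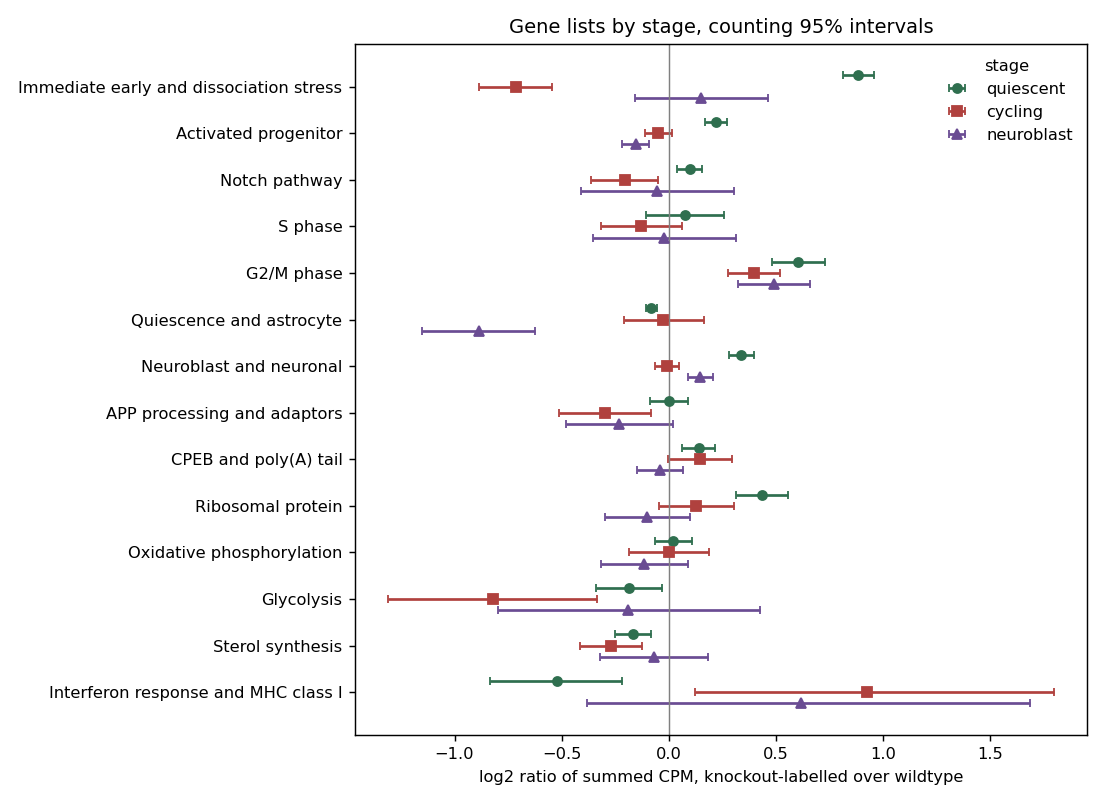
Ratio of summed CPM, knockout-labelled over wildtype, on a log2 scale for 14 gene lists in quiescent, cycling and neuroblast cells. Bars are 95% counting intervals without animal-to-animal spread. The immediate early list lies above 0 in quiescent cells and below 0 in cycling cells, and the G2/M list lies above 0 in all 3 stages.

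Markers of other cell types were few in placed cells. In quiescent cells the 16 microglia and macrophage genes summed to 55 and 52 counts, 15 endothelial and pericyte genes to 211 and 153, 11 oligodendrocyte genes to 119 and 102, 7 ependymal genes to 113 and 62, and 13 genes of mature striatal neurons to 95 and 63. Microglial genes held 3 and 19 counts in cycling cells and 1 and 11 in neuroblasts. Interferon response and MHC class I genes, which microglia also express, had a ratio of 0.696 in quiescent cells on 243 and 141 counts and of 1.90 in cycling cells on 17 and 57. The part of other cells in these values was not tested. Larger differences lay in the cells without a stage, where microglial genes held 258 and 591 counts, oligodendrocyte genes 290 and 93, and striatal neuron genes 145 and 406.

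Gene by gene, 138 of 3630 genes in quiescent cells were 2-fold or more higher in the knockout-labelled library, 3.8%, and 115 were 2-fold or more lower, 3.17%. In cycling cells 64 of 1063 were higher, 6.02%, and 39 lower, 3.67%. In neuroblasts 37 of 778 were higher, 4.76%, and 28 lower, 3.6%. When each gene was counted at most once per cell, fewer genes were tested and fewer passed. In quiescent cells 27 of 2570 genes were 2-fold higher and 16 lower. The values were 1 and 0 of 536 in cycling cells, and 0 and 0 of 437 in neuroblasts. How the counts of all genes past 2-fold spread over cells was not tested. Among 2700 rarely detected genes, 82.7% of positive entries were 1 count, 9.05% were 3 counts or more and the largest was 25. The labels do not say whether the counts are molecules or reads.

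The largest differences among quiescent cells were in genes of diverse function. On the higher side stood Scrib, a polarity scaffold, with 10 and 46 counts, a ratio of 5.52 (2.75 to 12.3), and Brix1, a ribosome assembly factor, with 10 and 41. Ier2, an immediate early gene, Napg, a vesicle fusion factor, and the cyclin Ccnb2 had ratios of 4.80, 4.60 and 4.47. Atp6v1d, a subunit of the vacuolar proton pump, Sec61b, of the protein translocon, and Abcg1, a sterol exporter, had 4.15, 4.06 and 3.64. Napg, Atp6v1d and Sec61b were higher in all 3 knockout-labelled mice than in any wildtype mouse, with means of 102 ± 23.2, 132 ± 43.4 and 122 ± 83.0 CPM against 23.5 ± 40.7, 6.95 ± 12.0 and 7.84 ± 13.6 (SD, n = 3 mice each). Scrib, Brix1, Ier2, Ccnb2 and Abcg1 overlapped. The tagged cells are part of the cells whose ratios picked these genes, so the values by mouse are not independent of that choice. Of all 3630 genes, 5.87% were higher in every knockout-labelled mouse. Atp6v1d held 0, 1 and 0 counts in wildtype and 7, 5 and 7 in knockout-labelled mice. Counted once per cell, all 8 ratios were lower, with Brix1 at 3.24, Ier2 at 3.17, Scrib at 2.85, Napg at 2.32, Atp6v1d at 2.25 (0.937 to 5.78) and Abcg1 at 1.67 (0.881 to 3.20), and the intervals of the last 2 reached 1.

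On the lower side, Aplp1 was the gene with the most counts and the most cells. Pomp, a proteasome assembly factor, held 72 and 14 counts in 19 and 7 cells, a ratio of 0.233 (0.121 to 0.417). Its values by mouse were 206, 313 and 200 CPM against 19.4, 34.8 and 24.8 CPM, without overlap. Wls, needed to secrete Wnt proteins, held 59 and 12 counts in 37 and 12 cells, a ratio of 0.244, and overlapped between mice. Psme2b held 54 and 10 counts and is a near-identical copy of a proteasome activator gene, so its counts are uncertain. Ankrd29, Pmpcb, a mitochondrial peptidase subunit, Tmem237, of the ciliary transition zone, and Syne1, a nuclear envelope anchor, had ratios from 0.228 to 0.264 on 50 to 72 counts in all. Psme2b and Tmem237 did not overlap between mice, on few counts, and the others did. The values by mouse are again part of those that picked the genes. Of all 3630 genes, 4.13% were lower in every knockout-labelled mouse. On the once-per-cell count, Aplp1 was at 0.299 (0.201 to 0.435) and Wls at 0.411 (0.195 to 0.805). The other 6 ranged from 0.422 to 0.596 with intervals that reached 1, Pomp at 0.467 (0.166 to 1.16) among them.

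edgeR's quasi-likelihood test on counts summed per mouse called none of 809 genes in quiescent cells at an adjusted p of 0.05 (0%), and DESeq2 called none either. On simulated data the edgeR test recovered 93% of 4-fold but only 36.8% of 2-fold changes, so differences of 2-fold can be missed. The simulation gave every gene the same spread between mice. The share of 4-fold changes that would be recovered in the real data, gene by gene, was not tested. An unadjusted p under 0.05 was reached by 43 genes, 5.32%, with edgeR and by 37 with DESeq2. The smallest p belonged to Nav2, a neuronal navigator gene, with 412, 563 and 752 CPM in wildtype and 2076, 973 and 1858 CPM in knockout-labelled mice (log2 fold change 1.47, SE 0.35, edgeR adjusted p = 0.176). Next came Klf13, a zinc finger transcription factor (1.00, SE 0.27, edgeR adjusted p = 0.367), Pdpn, a membrane glycoprotein (-1.16, SE 0.33, edgeR adjusted p = 0.379), and Cdv3 (1.25, SE 0.36, edgeR adjusted p = 0.379). None of the 4 passed. In each the mice of the genotypes did not overlap, but they were picked by smallest p in these same mice. Of the 809 genes tested, 5.69% were higher and 5.07% lower in every knockout-labelled mouse. Fos, among the next genes, had a log2 fold change of 0.89 (SE 0.28, edgeR adjusted p = 0.409). Leaving out knockout-labelled tag 2 brought Nav2 past the threshold.

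In cycling cells, the largest ratios were on counts from few cells. Rdh13, a retinol dehydrogenase, held 1 wildtype count and 63 knockout-labelled counts in 18 cells, a ratio of 35.7 (6.17 to 1431) that became 10.9 (1.73 to 456) when counted once per cell. Srf, the serum response factor that drives immediate early genes, held 3 and 56 counts in 3 and 19 cells, and Mrtfb, a coactivator of Srf, held 2 and 50 in 2 and 16 cells. Their ratios of 10.6 (3.43 to 52.8) and 14.2 (3.72 to 120) became 3.85 and 4.87 on that count. D8Ertd738e, Polr3f, an RNA polymerase III subunit, Nol4 and Larp4b, an RNA-binding protein, had ratios from 4.60 to 8.21, and from 2.00 to 4.56 when counted once per cell, where the intervals of Nol4 and Larp4b reached 1. Mir5113, a microRNA locus, held 6 and 54 counts, which may come from an overlapping transcript. In quiescent cells of the mice, Srf, Mrtfb and Rdh13 all overlapped.

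Lower in cycling cells were Lgr4, a receptor for R-spondins, with 42 and 11 counts in 10 cells of each library, a ratio of 0.148 (0.0688 to 0.293), and Efcab14, with 75 and 36 counts, a ratio of 0.272. Gadd45g, a growth arrest gene, held 43 and 24 counts, a ratio of 0.316 (0.183 to 0.532), and Ccni, a cyclin of non-dividing cells, 64 and 39. Btg2, Zbtb6, Huwe1, a ubiquitin ligase, and Cpne3 had ratios from 0.379 to 0.413. Gadd45g, Btg2 and Efcab14 were higher in knockout-labelled quiescent cells, with ratios of 1.67, 1.67 and 1.43. Efcab14 did not overlap between mice there, at 206, 375 and 600 against 1087, 713 and 1263 CPM. Of all 3630 genes, 5.87% were higher in every knockout-labelled mouse in that stage. When counted once per cell, Lgr4 was at 0.608, Efcab14 at 0.680, Btg2 at 0.820, Zbtb6 at 0.695, Huwe1 at 0.608 and Cpne3 at 0.572 in cycling cells, with intervals that reached 1. Gadd45g, at 0.429 (0.187 to 0.954), and Ccni, at 0.538 (0.293 to 0.981), stayed below 1.

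Neuroblasts had fewer genes to compare. Higher in the knockout-labelled library were Rbm8a2, with 6 and 55 counts, a gene with a near-identical copy and uncertain counts, and Arpp21, a phosphoprotein of striatal neurons, with 6 and 49 but with a ratio of 1.23 when counted once per cell. Mal2 held 8 and 44 counts from 1 and 2 cells, so its ratio of 3.91 describes 3 cells. D8Ertd738e, Cdca2, a regulator of mitotic exit, and Ncoa1, a nuclear receptor coactivator, had ratios of 3.91, 3.75 and 3.70. Counted once per cell these were 8.23, 2.06 and 2.19, and the intervals of Cdca2, Ncoa1 and Arpp21 reached 1.

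Rbfox2, a splicing factor of neurons, was the lowest, with 52 and 22 counts in 28 and 17 neuroblasts, a ratio of 0.301 (0.174 to 0.505), and 0.500 when counted once per cell. Csnk1g1, a casein kinase, Gpr85, an orphan receptor, Tmem50a, Eif3a, a translation initiation subunit, Rab11b, of recycling endosomes, and Lrp4, an agrin receptor, had ratios from 0.330 to 0.407. Mir5114 held 37 and 18 counts with the same uncertainty as Mir5113. On the once-per-cell count, the 7 genes named after Rbfox2 ranged from 0.527 to 0.823 with intervals that reached 1. Lrp4 was also lower in the quiescent cells of every knockout-labelled mouse, at 2600, 1947 and 1486 CPM against 2643, 3565 and 2974 CPM. These are tagged cells of another stage, where 4.13% of all 3630 genes were lower in every such mouse. The closest values, 2600 and 2643 CPM, rest on 134 and 77 counts.

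**Figure D4:**
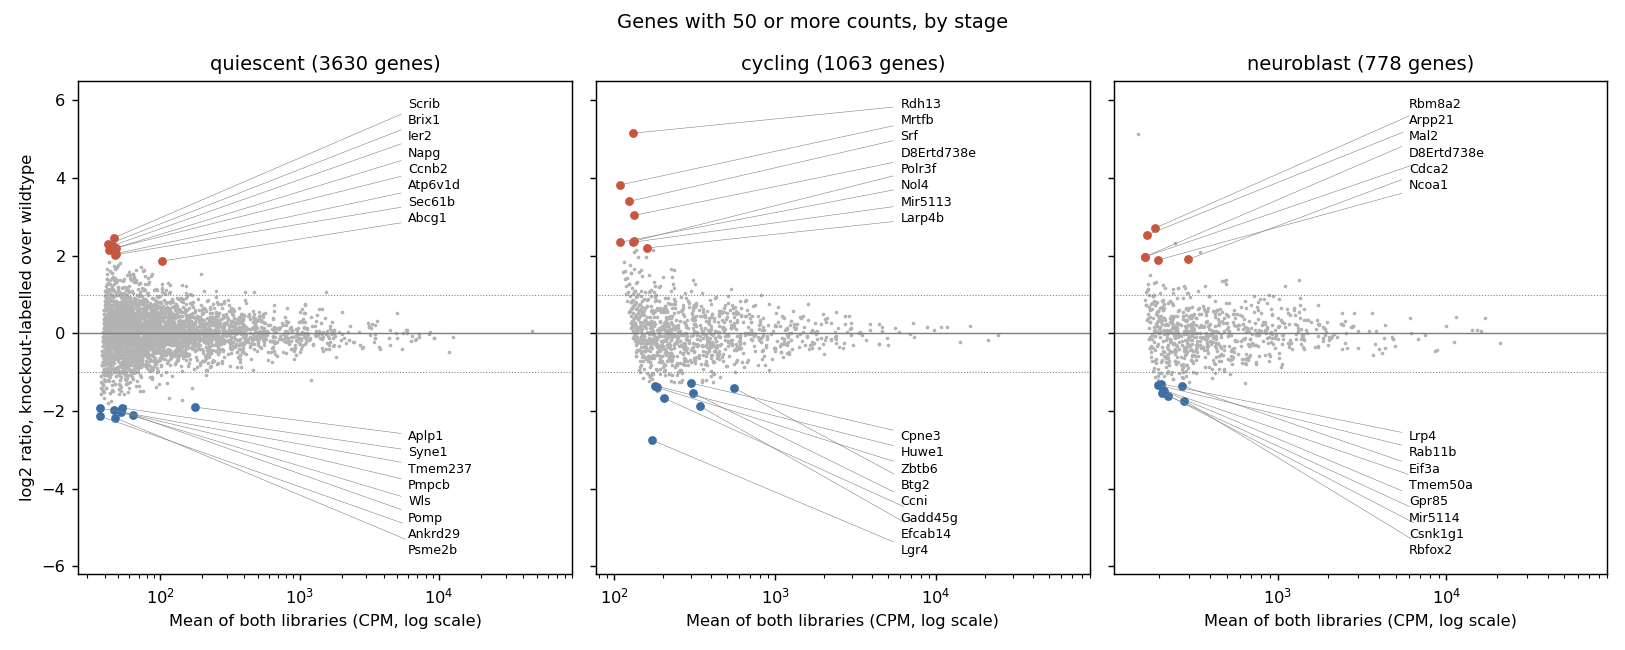
Ratio of each gene with 50 or more counts, knockout-labelled over wildtype, on a log2 scale against its mean level in CPM on a log axis, for the 3 stages. Coloured and labelled points are genes named as higher or lower at that stage, and dotted lines mark a 2-fold ratio. Most named genes lie at the low-level end of each panel, and Aplp1 has the highest level among those named as lower in quiescent cells.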

How the data were processed

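Per the labels' protocols, cells were captured with 10x Genomics chemistry. The submitters' processing notes name mm10, Bowtie2, Cell Ranger and SAMtools without saying which step used which, and no source here states versions, cell filters or annotation. The authors deposited whole-number counts per gene and cell and per tag and barcode. Of the 12470 shared gene identifiers, 12356 had a symbol. All deposited cells were used, and neither doublets nor free RNA were removed.

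Members, gene lists and rules were chosen with earlier results of these data known. A mouse was called at 10 or more tag counts with 75% or more of 1 tag. Counts were summed by stage and library, scaled to CPM and compared as ratios (knockout-labelled over wildtype) with exact conditional 95% intervals for genes with 50 or more counts. Quiescent sums per mouse were tested with edgeR 4.0.16 (filterByExpr, TMM, Benjamini-Hochberg at 0.05) and DESeq2 1.42.0 in R 4.3.3. Shares were tested by exact permutation. Named genes were the APP family, the 13 markers, per stage the 8 largest ratios each way whose interval excluded 1, leaving out predicted genes, pseudogenes and the lower of neighbouring genes correlated above 0.8 over cells, the 4 smallest edgeR p, and the 2 most abundant members of a list described; some genes are not reported here. Alternatives changed the marker and tag minimums, depth, scaling and the mice used. The edgeR test was checked on data simulated with the same spread between mice for every gene. It recovered 80 of 86 4-fold and 32 of 87 2-fold changes there, with 7 false calls. Positions are from RefSeq annotation of GRCm38.p6.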

Additional observations from a re-analysis of the deposited data

Results flagged for a closer look

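The following genes and lists had counting intervals on opposite sides of a ratio of 1 (knockout-labelled over wildtype) in a pair of stages, and the difference between stages was not tested. Between quiescent and cycling cells, Larp4b was 0.692 and 4.60, Efcab14 1.43 and 0.272, Gadd45g 1.67 and 0.316, and Btg2 1.67 and 0.379. Rab11b was 1.56 in quiescent cells and 0.398 in neuroblasts.

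Among the lists, immediate early genes were 1.85 in quiescent and 0.609 in cycling cells, Notch pathway genes 1.07 and 0.867, and interferon response and MHC class I genes 0.696 and 1.90, on 243 and 141 counts in quiescent and 17 and 57 in cycling cells. Activated progenitor genes were 1.17 in quiescent cells and 0.899 in neuroblasts. Btg2 belongs to the immediate early and the activated progenitor list, and Gadd45g to the latter, so these values are not independent of each other. Stages of the same library share their preparation, and the ratios carry no spread between animals.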

How the results depend on the processing

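The quiescent share difference of -12.3 percentage points was -9.14 among placed cells only. Thinning to 200 counts, without the cells below that depth, made the cycling difference 0.824, on shares of 1.37% and 2.19%. It turned the neuroblast difference to -0.134. Per mouse, the neuroblast difference turned to -0.783 with 3 or more tag counts. Leaving out each mouse gave -7.59 to 1.14 points for quiescent cells, 0.386 to 2.27 for cycling cells and -0.143 to 1.31 for neuroblasts, turned by knockout-labelled tag 3 in the first and last. Without knockout-labelled tag 2 the Aplp1 ratio of quiescent cells with 10 or more tag counts was 0.

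Counts of genes past 2-fold (higher and lower) moved with the count minimum. With 25 or more counts they were 412 and 364 in quiescent cells, 263 and 180 in cycling cells, and 162 and 160 in neuroblasts. With 100 or more they were 32 and 15, 9 and 12, and 9 and 4. After thinning they were 36 and 30, 2 and 0, and 5 and 1, of fewer genes tested. Counted once per cell they were 27 and 16, 1 and 0, and 0 and 0. In cells with no marker of another stage, chosen like the once-per-cell count after seeing the data, they were 8 and 8 in cycling cells and 21 and 14 in neuroblasts, and 108 and 95 in quiescent cells. TMM scaling raised all ratios by a log2 of 0.14 in cycling cells and gave 84 higher and 22 lower there, 79.2% higher against 62.1%, and 50 and 20 in neuroblasts, 71.4% against 56.9%.

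Of 47 named-gene ratios whose interval excluded 1, 19 still did when counted once per cell, as did 19 of 32 list ratios. Of 2 single genes that changed direction, both under thinning in neuroblasts, D8Ertd738e became 0.765 and Gpr85 1.84. Of the lists, thinning turned quiescence genes to 1.05 and Notch genes to 0.954 in quiescent cells, and neuronal genes in neuroblasts to 0.989. Counting once per cell turned Notch genes to 1.12 in cycling cells and neuronal genes to 0.904 in neuroblasts. In cells with no marker of another stage, G2/M genes turned to 0.829 in cycling cells and 0.907 in neuroblasts, and Notch genes to 1.005 in cycling cells. A marker sum of 3 or more turned striatal neuron genes to 1.06 in neuroblasts.

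edgeR calls in quiescent cells ranged from 0 to 1 when each mouse was left out, and were 0 with RLE scaling, no filter, DESeq2, other tag limits and a block on the tag number. Same-numbered mice share only a number (correlations 0.013, 0.121 and 0.003 over the genes tested, and 4 of 6 mice correlated best with their own number). With the block on the tag number the share differences were -4.12, 1.21 and 0.648 points and edgeR called 0 genes, 41 at an unadjusted p under 0.05 against 43. The edgeR alternatives for cycling cells and neuroblasts were not run, since no mouse had 10 called cells. Ratios with under 10 counts, or none in the wildtype, in an alternative are not given, a limit set after seeing the data.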
